A study of Rattus norvegicus with 8 samples.

Results

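The Hedgehog genes examined here were 9: the ligands Shh, Dhh and Ihh, the receptor Ptch1, the signal transducer Smo, the transcription factors Gli1, Gli2 and Gli3, and the ligand-binding inhibitor Hhip. They were selected by gene symbol, with earlier results of these data known, from the 32545 Ensembl genes of the normalized count table. A total of 8 of the 9, all but Ihh, passed the filter on low counts, which asked for 2 or more libraries with a normalized count of 10 or more and left 16478 genes.

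RNA was sequenced from sciatic nerve of female, outbred Sprague Dawley rats aged between 3 and 6 months. The PEG group held 3 PEG-fused peripheral nerve allografts (PNAs), in which the cut ends of host and donor axons were joined with polyethylene glycol. The NC group held 3 negative control PNAs, which were placed in the same way without PEG. Both kinds of graft came from other rats, were neither tissue matched nor protected by immunosuppression, were washed with Plasmalyte A and methylene blue, and were excised at 14 days PO (postoperatively). The Unop group held 2 unoperated sciatic nerves, so each comparison with it rests on 2 animals. A library is named by its group and replicate, as in PEG 1, and each came from a separate animal, with 32472925 to 39959620 reads on genes.

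Hedgehog proteins are secreted, lipid-modified ligands. They bind Ptch1, which otherwise keeps Smo inactive, and active Smo acts through the primary cilium to turn the Gli factors from repressors into activators. Ptch1, Gli1 and Hhip are transcribed in response to the signal and are widely used as its readout. In peripheral nerve, Dhh is the ligand made by Schwann cells, and its signal to mesenchymal cells is required for the perineurium, the sheath around each nerve fascicle.

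Promoter sequences were read from RefSeq (GRCr8, a later build than the Rnor_6.0 genome of the counts), which held windows for 6 members, Dhh, Ptch1, Smo, Gli2, Gli3 and Hhip. The 250 bases before each annotated start were searched on both strands for the consensus that Gli factors bind, GACCACCCA, and for its inner letters ACCACCC, which every match of the longer motif contains. The consensus was found in 113 of 33469 rat promoters of this length (0.338%) and, among the 6 members, in Ptch1. The shorter motif was found in 1275 promoters (3.81%) and, among the members, in Ptch1 and Gli2. Ptch1 is shown because it holds the whole consensus, Gli2 because it holds the inner letters alone, and Dhh because it was the member closest to Ptch1 in its profile over the libraries and held neither. Each is printed from 5′ to 3′ on the strand of the gene, with the match, here the reverse complement of the motif, in capitals.
Ptch1, chr17:1555321-1555570, plus strand: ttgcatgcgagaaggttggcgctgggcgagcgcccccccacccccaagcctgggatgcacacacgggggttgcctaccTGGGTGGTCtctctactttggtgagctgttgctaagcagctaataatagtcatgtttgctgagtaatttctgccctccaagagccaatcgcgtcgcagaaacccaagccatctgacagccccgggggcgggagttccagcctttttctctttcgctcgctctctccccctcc
Gli2, chr13:32716419-32716668, minus strand: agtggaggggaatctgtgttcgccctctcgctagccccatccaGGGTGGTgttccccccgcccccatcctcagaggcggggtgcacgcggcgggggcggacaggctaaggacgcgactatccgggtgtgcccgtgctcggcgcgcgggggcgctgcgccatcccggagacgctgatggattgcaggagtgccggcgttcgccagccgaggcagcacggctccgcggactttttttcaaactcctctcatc
Dhh, chr7:131935353-131935602, minus strand: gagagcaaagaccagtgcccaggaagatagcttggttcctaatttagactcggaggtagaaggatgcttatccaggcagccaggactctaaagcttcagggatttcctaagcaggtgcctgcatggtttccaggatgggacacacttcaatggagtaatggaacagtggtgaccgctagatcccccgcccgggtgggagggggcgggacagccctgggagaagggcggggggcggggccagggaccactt
The match in Ptch1 lay between 172 and 164 bases before the start and that in Gli2 between 207 and 201 bases before it. A match is a string of letters and no measure of binding.

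Between the grafts, the 8 tested Hedgehog genes each had a higher mean with PEG fusion than without it, though Hhip overlapped, and the ligand Shh differed most, with a mean 7.33 times that of NC PNAs. Against unoperated nerves the set divided. Dhh, Ptch1, Smo, Gli1 and Hhip were lower in both kinds of graft, Shh was lower in NC PNAs while PEG-fused PNAs overlapped with unoperated nerves, and Gli2 and Gli3 were lowest in unoperated nerves by mean. The order of group means was Unop above PEG above NC for 6 members and PEG above NC above Unop for 2, while Ihh was at a few reads throughout. All tissue was sequenced in bulk, where fewer cells of a type and less RNA per cell cannot be told apart.

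**Figure D1:**
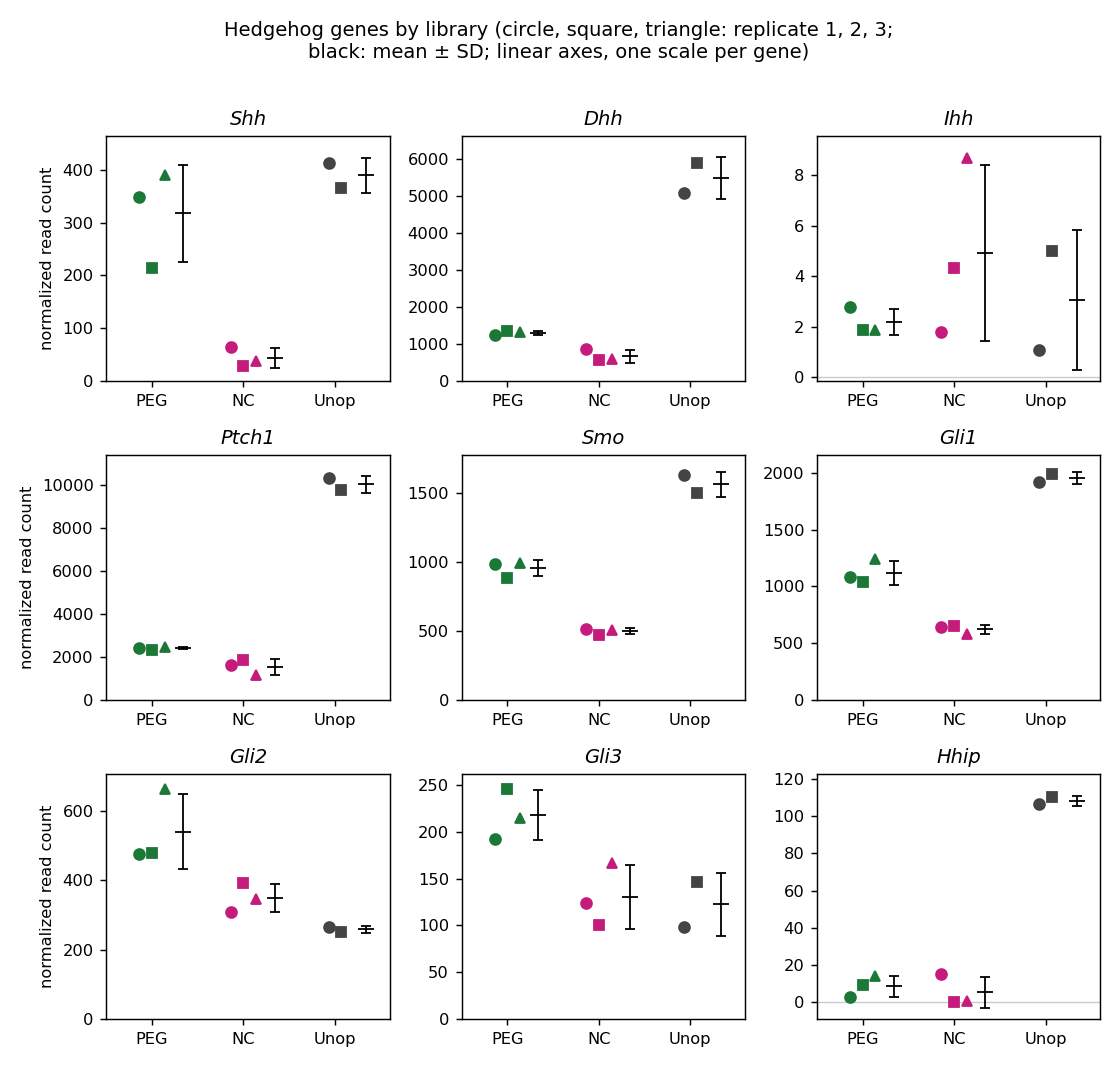
Normalized read counts of the 9 Hedgehog genes (y axis, linear, a separate scale per gene) in 3 PEG-fused PNAs, 3 NC PNAs and 2 unoperated nerves, with 1 point per library and the mean ± SD in black. Dhh in unoperated nerves was 5073 and 5878, above every graft, whereas Gli2 was lowest there, at 266 and 250.2.

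Dhh (ENSRNOG00000053675) had a normalized count of 1235, 1340 and 1334 in PEG 1, PEG 2 and PEG 3, of 878, 557 and 583 in NC 1, NC 2 and NC 3, and of 5073 and 5878 in Unop 1 and Unop 2. The 3 groups did not overlap. The PEG mean was 1303 ± 59.1 (SD, n = 3), the NC mean 673 ± 179 (SD, n = 3) and the Unop mean 5476 ± 570 (SD, n = 2). PEG-fused PNAs thus held 23.8% and NC PNAs 12.3% of the unoperated mean. The log2 fold change from limma, fitted on log2(normalized count + 1), was 0.98 (standard error 0.17) for PEG-fused over NC PNAs, -2.07 (standard error 0.19) for PEG-fused PNAs over unoperated nerves and -3.05 (standard error 0.19) for NC PNAs over unoperated nerves.

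Shh (ENSRNOG00000006120), the ligand best known from the neural tube and limb, had counts of 348, 214 and 390.2 in the 3 PEG-fused PNAs. In NC PNAs it was at 64.3, 28.0 and 37.6, and in unoperated nerves at 413 and 366. The 3 NC PNAs lay below every other library, and PEG 3 lay between the 2 unoperated nerves. The mean of PEG-fused PNAs was 317 ± 91.9 (SD, n = 3), that of NC PNAs 43.3 ± 18.8 (SD, n = 3) and that of unoperated nerves 390 ± 33.0 (SD, n = 2). The log2 fold change was 2.88 (standard error 0.33) for PEG-fused over NC PNAs and -3.22 (standard error 0.37) for NC PNAs over unoperated nerves. Between PEG-fused PNAs and unoperated nerves it was -0.34 (standard error 0.37), a difference within the spread between libraries.

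Ihh (ENSRNOG00000018059), the ligand of growing cartilage, was counted at between 1 and 9 reads per library and was not tested. Its groups overlapped, and differences between them were not detectable at this depth.

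The receptor Ptch1 (ENSRNOG00000019354) had counts of 2432, 2344 and 2455 in PEG-fused PNAs, 1616, 1846 and 1141 in NC PNAs and 10326 and 9758 in unoperated nerves. Unoperated nerves therefore stood far above both kinds of graft, which also did not overlap with each other. The PEG mean was 2410 ± 58.7 (SD, n = 3), the NC mean 1534 ± 359 (SD, n = 3) and the Unop mean 10042 ± 402 (SD, n = 2). As a log2 fold change, PEG-fused PNAs were 0.68 (standard error 0.16) above NC PNAs, while PEG-fused and NC PNAs were at -2.06 and -2.74 (standard error 0.18 for each) over unoperated nerves. Its promoter was the one with the whole Gli consensus.

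Smo (ENSRNOG00000008332), the transducer that Ptch1 restrains, was at 983, 888 and 995 in PEG-fused PNAs, 517, 473 and 508 in NC PNAs and 1629 and 1498 in unoperated nerves. These 3 groups were well separated and each varied little, with means of 956 ± 58.7 (SD, n = 3), 499 ± 22.9 (SD, n = 3) and 1564 ± 92.4 (SD, n = 2). The log2 fold change was 0.93 (standard error 0.09) for PEG-fused over NC PNAs, -0.71 (standard error 0.10) for PEG-fused PNAs over unoperated nerves and -1.64 (standard error 0.10) for NC PNAs over unoperated nerves.

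Gli1 (ENSRNOG00000025120), the Gli factor that acts as an activator and is itself a target of the pathway, followed the same order. Its counts were 1084, 1039 and 1242 in PEG-fused PNAs, 644, 648 and 577 in NC PNAs and 1917 and 1995 in unoperated nerves. No library crossed into another group. The log2 fold change was 0.84 (standard error 0.10) for PEG-fused over NC PNAs, and it was -0.81 and -1.65 (standard error 0.11 for each) for PEG-fused and NC PNAs over unoperated nerves.

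Gli2 (ENSRNOG00000007261), a main activator of the response, ran the other way against unoperated nerves. It had 476, 479 and 664 normalized counts in PEG-fused PNAs, 309, 392 and 347 in NC PNAs and 266 and 250.2 in unoperated nerves. Every PEG-fused PNA was above every NC PNA, and every NC PNA was above both unoperated nerves. Its log2 fold change was 0.61 (standard error 0.16) for PEG-fused over NC PNAs, 1.04 (standard error 0.18) for PEG-fused PNAs over unoperated nerves and 0.43 (standard error 0.18), not called, for NC PNAs over unoperated nerves. The first call was lost without NC 1, NC 3 or PEG 3, at log2 fold changes of 0.53, 0.61 and 0.46, and the last was gained without NC 1 or PEG 3, at 0.51 and 0.43.

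Gli3 (ENSRNOG00000014395), a main repressor when the signal is absent, was at 192.8, 246 and 215 in PEG-fused PNAs, at 124, 100.0 and 167 in NC PNAs and at 98.7 and 146 in unoperated nerves. PEG-fused PNAs lay above all other libraries, and NC PNAs and unoperated nerves overlapped. The log2 fold change was 0.76 (standard error 0.24) over NC PNAs and 0.85 (standard error 0.27) over unoperated nerves in PEG-fused PNAs, and 0.08 (standard error 0.27) between NC PNAs and unoperated nerves. Its call for PEG-fused over NC PNAs was lost when NC 1, NC 2, PEG 1, PEG 2 or PEG 3 was left out, where the log2 fold change lay between 0.59 and 0.84. Its call over unoperated nerves was lost without PEG 2, PEG 3 or Unop 1, at 0.75, 0.85 and 0.56.

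Hhip (ENSRNOG00000018268), a membrane protein that binds and sequesters the ligands, had normalized counts of 106.2 and 110.1 in unoperated nerves. In PEG-fused PNAs it was at 2.78, 9.35 and 14.1, and in NC PNAs at 15.2, 0 and 0.965, from between 0 and 17 reads. Both kinds of graft lay far below unoperated nerves and overlapped with each other. It passed the filter through both unoperated nerves together with PEG 3 and NC 1. The mean of unoperated nerves was 12.4 times that of PEG-fused PNAs. The NC mean, 5.39 ± 8.51 (SD, n = 3), rested on NC 1, so no such ratio is given for it. Fitted log2 fold changes over unoperated nerves were -3.70 in PEG-fused PNAs and -5.11 in NC PNAs (standard error 1.10 for each), on a scale that shrinks differences at few reads. For PEG-fused over NC PNAs the value was 1.40 (standard error 0.98) and was not called; without NC 1, which held 17 reads against 0 and 1 in NC 2 and NC 3, it was 2.58 and called. Its call for PEG-fused PNAs against unoperated nerves was lost without PEG 1, Unop 1 or Unop 2, where the log2 fold change lay between -3.73 and -3.13.

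Across the 8 tested members, a gene was called when its limma adjusted p (Benjamini-Hochberg, over all tested genes) was under 0.05. For PEG-fused over NC PNAs, 7 members were called higher and 0 lower in limma, with 7 and 0 in DESeq2, 6 and 0 in edgeR and 0 lower at an unadjusted p under 0.05, beside 15.0% of all tested genes called higher and 13.9% lower. For PEG-fused PNAs over unoperated nerves, 2 were called higher (Gli2 and Gli3) and 5 lower, where 29.1% of all tested genes were higher and 28.6% lower. For NC PNAs over unoperated nerves, 6 were called lower and 0 higher in limma, edgeR and DESeq2, with 1 higher (Gli2) at an unadjusted p under 0.05, where 32.2% of tested genes were higher and 32.3% lower. The median log2 fold change of the 8 was 0.89, -0.76 and -2.19 in these comparisons, against medians of 0.002, 0.013 and 0.022 over all tested genes. These values are a description, since the set was chosen with the same libraries in view, and the comparisons share groups. Without PEG 3, 4 members were called for PEG-fused over NC PNAs, with Ptch1, Gli2 and Gli3 no longer called at log2 fold changes of 0.67, 0.46 and 0.77. Calls over all tested genes fell as well, to 1596 higher and 1530 lower, from 2477 and 2286 with every library.

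**Figure D2:**
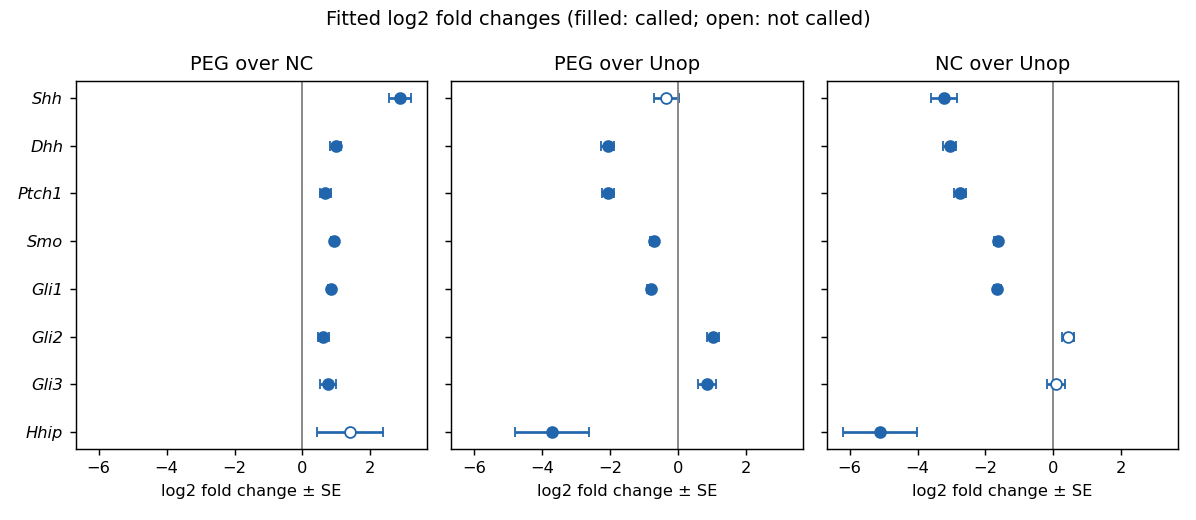
Log2 fold changes (x axis) of the 8 tested Hedgehog genes from limma, with bars of 1 standard error, for PEG-fused over NC PNAs, PEG-fused PNAs over unoperated nerves and NC PNAs over unoperated nerves. All 8 points lie above 0 in the first panel, and in the third Gli2 and Gli3, at 0.43 and 0.08, stand apart from the others, which lie between -5.11 and -1.64.

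Ratios within a library show where members changed unequally. Dhh was set against Sox10, a transcription factor of the Schwann cell lineage, whose own counts were between 2491 and 2686 in PEG-fused PNAs, between 1196 and 1792 in NC PNAs and at 4257 and 3864 in unoperated nerves. The log2 ratio of Dhh to Sox10 was -1.01, -0.94 and -1.01 in PEG-fused PNAs, -1.03, -1.37 and -1.04 in NC PNAs and 0.25 and 0.61 in unoperated nerves. Both kinds of graft lay below unoperated nerves, with differences in mean of -1.42 for PEG-fused and -1.57 for NC PNAs, and PEG-fused PNAs lay 0.16 above NC PNAs. The difference in Dhh between the grafts was therefore close in size to that in Sox10, and the difference from unoperated nerves was larger than that in Sox10. The result turned on the reference gene. Dhh relative to Erbb3, a neuregulin receptor of Schwann cells, was lower in PEG-fused PNAs than in unoperated nerves by a log2 ratio of -2.34, and relative to Cdh19 it overlapped with them (-0.13). Relative to S100b, a calcium-binding protein of Schwann cells, it was higher, by 1.22.

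The balance between ligands also differed between the grafts. The log2 ratio of Dhh to Shh was 1.83, 2.65 and 1.77 in PEG-fused PNAs, 3.77, 4.32 and 3.95 in NC PNAs and 3.62 and 4.00 in unoperated nerves. PEG-fused PNAs lay below both other groups, which overlapped. Shh relative to Sox10 was 2.09 higher in PEG-fused relative to NC PNAs on the log2 scale, overlapped between PEG-fused PNAs and unoperated nerves (0.31), and was lower in NC PNAs than in unoperated nerves (-1.78).

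Among the Gli factors, the log2 ratio of Gli1 to Gli2 was 1.19, 1.12 and 0.90 in PEG-fused PNAs, 1.06, 0.73 and 0.73 in NC PNAs and 2.85 and 3.00 in unoperated nerves. Both kinds of graft lay below unoperated nerves, with differences in mean of -1.85 and -2.08, and overlapped with each other. Against Gli3, the log2 ratio of Gli1 differed from that in unoperated nerves by -1.66 in PEG-fused PNAs and by -1.74 in NC PNAs. Ptch1 differed from unoperated nerves more than its fellow target Gli1 did. The log2 ratio of Gli1 to Ptch1 was 1.25 higher in PEG-fused PNAs and 1.09 higher in NC PNAs than in unoperated nerves.

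**Figure D3:**
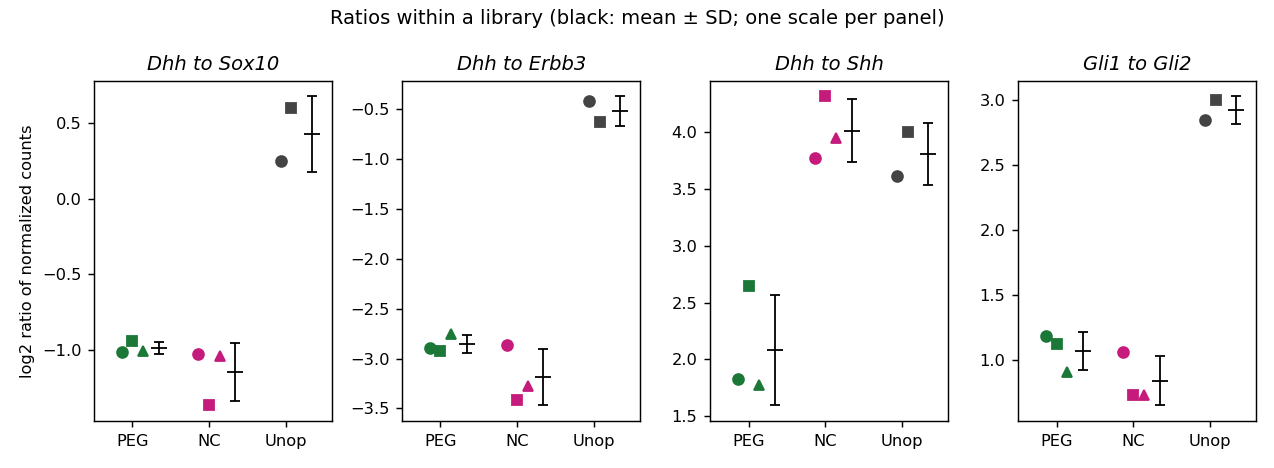
Log2 ratios of normalized counts within a library (y axis, a separate scale per panel) for Dhh to Sox10, Dhh to Erbb3, Dhh to Shh and Gli1 to Gli2, with 1 point per library and the mean ± SD in black. Both kinds of graft lie apart from unoperated nerves in 3 of the 4 panels, and PEG-fused PNAs stand alone for Dhh to Shh, between 1.77 and 2.65.

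Marker lists of the cells in the nerve moved in several directions beside these values. The summed normalized count of 7 Schwann cell markers lay between 61993 and 68786 in PEG-fused PNAs, between 23513 and 60334 in NC PNAs and between 1345350 and 1584940 in unoperated nerves. In limma, 4 of the 7 were higher and 0 lower in PEG-fused relative to NC PNAs (0 lower also in edgeR, DESeq2 and at an unadjusted p under 0.05), and 6 were lower in PEG-fused PNAs than in unoperated nerves. Of 7 markers of repair Schwann cells, 3 were higher in PEG-fused relative to NC PNAs and 6 higher than in unoperated nerves, against the direction of Dhh, among them Ngfr, the p75 neurotrophin receptor, by a log2 fold change of 4.28. Of 4 perineurial markers, 3 were lower than in unoperated nerves in each kind of graft (Slc2a1, Cldn1 and Tjp1) while the fourth, Muc1, was higher, by 1.58 (limma adjusted p = 0.0188) in PEG-fused and 1.24 (limma adjusted p = 0.0448) in NC PNAs, and the sums were between 6844 and 7853 in PEG-fused PNAs, between 4865 and 6773 in NC PNAs and between 35024 and 38133 in unoperated nerves. Fibroblast markers ran from 609736 to 892452 in PEG-fused PNAs from 346986 to 527501 in NC PNAs and from 377524 to 509356 in unoperated nerves. Of these 7, 2 were higher in PEG-fused over NC PNAs in limma, 3 in edgeR and 6 in DESeq2, and none was lower. All 7 log2 fold changes there lay between 0.31 and 1.06. Against unoperated nerves 4 were higher and 1 lower with PEG fusion, where Ptch1, Smo and Gli1 were lower. Of 5 markers each, T cells had 5 lower and macrophages 3 lower in PEG-fused relative to NC PNAs, pericytes and smooth muscle had 4 higher, and endothelium had 1 lower. Against unoperated nerves, 3 pericyte and smooth muscle markers were lower and 1 higher in PEG-fused PNAs, and 4 were lower in NC PNAs. Their sums lay between 13669 and 15226 in PEG-fused PNAs, between 7401 and 10377 in NC PNAs and between 21611 and 21642 in unoperated nerves. Endothelium had 3 lower in PEG-fused and 4 lower in NC PNAs. No endothelial marker was called higher in either, nor any pericyte and smooth muscle marker in NC PNAs, by limma, edgeR or DESeq2. T cell and macrophage markers, 5 of 5 each, were higher in both kinds of graft than in unoperated nerves. All 4 adipocyte markers were lower than in unoperated nerves in both, with sums between 4017 and 9834 in the grafts against 66967 and 107804, and 3 of the 4 were lower in PEG-fused than NC PNAs, against the direction of the members. The part of these cell types in the Hedgehog values was not tested. Skeletal muscle markers summed to 742112 in NC 1 and 272430 in NC 3, against 12628 in NC 2 and between 2992 and 17681 in PEG-fused PNAs. With NC 1 and NC 3 both left out, Shh, Dhh, Ptch1, Smo, Gli1 and Gli3 were still called for PEG-fused over NC PNAs, with Ptch1 at 0.38, Gli2 lost its call at 0.44, and Hhip gained one against a single library with 0 reads. The lone NC PNA was then assumed to vary like the other groups.

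Genes with the most similar profile were sought for each tested member, as the smallest root mean square difference of centred log2(normalized count + 1) over the 8 libraries among all tested genes. For Dhh these were Cadm4 (0.111), a cell adhesion molecule of Schwann cells, Itga6 (0.122), a laminin receptor subunit, and Jam3 (0.129), a junctional adhesion molecule. For Ptch1 they were Dmtn (0.141), Mgat3 (0.144) and the kinase gene Mapk3 (0.146). Smo and Gli1 had each other as the nearest gene (0.103), followed by Cystm1 (0.104) and Spry4 (0.108) for Smo and by Tmem204 (0.106) and Tspan18 (0.111) for Gli1. Gli2 was nearest to Smim3 (0.117), Sgk1 (0.126) and Eng (0.127), and Gli3 to AC123494.1 (0.0576), Ccdc9b (0.130) and Trio (0.151). In this unscaled distance Shh had no neighbour as close, with Spp1 (0.353), the gene of osteopontin, Slc6a15 (0.367) and LOC681458 (0.432), and Hhip was nearest to Prss12 (0.584), Ptpru (0.681) and Shroom1 (0.699). Such a distance grows with the spread of the member itself. The root mean square around its own mean was 1.52 for Shh and 2.32 for Hhip, against 0.446 to 1.20 for the other tested members. Between members, the next closest pairs were Dhh with Ptch1 (0.289) and Gli2 with Gli3 (0.356). The 8 points fall into 3 groups, so a small distance mostly says that 2 genes order the groups alike.

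The other genes of the pathway were grouped in 5 lists with 59 tested genes. These lists, too, were chosen with earlier results of these data known, so their counts and p-values are a description. For PEG-fused over NC PNAs, 17 of the 59 were higher and 4 lower by limma (28.8% and 6.78%, beside the 15.0% and 13.9% of all tested genes), with a median log2 fold change of 0.25. Among the lower ones, Nkx2-2 entered the test only through its level in NC PNAs. For PEG-fused PNAs over unoperated nerves, 19 were higher and 19 lower (32.2% each, near the 29.1% and 28.6% of all tested genes), and for NC PNAs over unoperated nerves, 11 were higher and 24 lower (18.6% and 40.7%, beside 32.2% and 32.3%). Foxl1, among the lower ones in both, entered the test only through its level in unoperated nerves. Counts for PEG-fused over NC PNAs moved with the libraries, to 13 called without PEG 2. Calls over all tested genes fell as well, to 1363 higher and 1390 lower without PEG 2, from 2477 and 2286 with every library.

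Of 5 genes for ligand acylation and release, 3 were higher in PEG-fused relative to NC PNAs. They were Disp1, which releases the lipid-modified ligand from the cell (log2 fold change 0.51, limma adjusted p = 0.0391), Hhat, the acyltransferase that palmitoylates it (0.92, limma adjusted p = 0.0407), and Scube1, of the family of secreted carriers (0.64, limma adjusted p = 0.0485). These calls were marginal and were kept in 12, 12 and 8 of 19 alternative analyses. Against unoperated nerves, 3 were higher and 2 lower in PEG-fused PNAs, and 1 was higher and 2 lower in NC PNAs. Disp1 was at 2267 and 3452 in unoperated nerves and between 329 and 523 in the grafts, with log2 fold changes of -2.52 (limma adjusted p = 9.16e-06) in PEG-fused PNAs and -3.03 (limma adjusted p = 2.49e-06) in NC PNAs. Scube1 followed it, at -2.14 (limma adjusted p = 0.000101) and -2.79 (limma adjusted p = 1.62e-05). Scube3 ran the other way, at 3.17 (limma adjusted p = 1.46e-05) and 3.45 (limma adjusted p = 6.36e-06), from 17.2 and 15.0 normalized counts in unoperated nerves. Scube2 was higher in PEG-fused PNAs than in unoperated nerves by 1.37 (limma adjusted p = 0.0113).

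Of 6 further receptors and co-receptors, 3 were higher and 1 lower in PEG-fused relative to NC PNAs. Boc, a co-receptor that presents ligand to Ptch1, was higher in PEG-fused relative to NC PNAs by 0.73 (limma adjusted p = 0.00686). Gpc3, a glypican that competes with Ptch1 for the ligand, was higher by 1.13 (limma adjusted p = 0.00782), and it was lower than in unoperated nerves by -1.51 (limma adjusted p = 0.00108) in PEG-fused PNAs and -2.64 (limma adjusted p = 3.44e-05) in NC PNAs. Lrp2, a large endocytic receptor, was lower in PEG-fused relative to NC PNAs by -1.41 (limma adjusted p = 0.00821) and lower than in unoperated nerves by -2.43 (limma adjusted p = 0.000288) in PEG-fused PNAs and -1.02 (limma adjusted p = 0.0208) in NC PNAs. Against unoperated nerves, 3 of the 6 were lower in PEG-fused PNAs and 4 in NC PNAs, and none was higher in either by limma, edgeR, DESeq2 or at an unadjusted p under 0.05.

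Of 23 intracellular transducers and regulators, 5 were higher and 2 lower in PEG-fused relative to NC PNAs, 9 were higher and 6 lower in PEG-fused PNAs than in unoperated nerves, and 7 were higher and 8 lower in NC PNAs than in unoperated nerves. Evc and Evc2, partners of Smo at the base of the cilium, were higher in PEG-fused relative to NC PNAs by 0.70 (limma adjusted p = 0.00707) and 0.67 (limma adjusted p = 0.0322), and Efcab7, which anchors them there, by 0.66 (limma adjusted p = 0.0103). Tulp3, which carries receptors into the cilium and acts against the signal, was higher by 0.85 (limma adjusted p = 0.0053). Genes that act for and against the signal were therefore among those higher. Grk2, a kinase that promotes Smo signalling, was lower in PEG-fused relative to NC PNAs by -0.92 (limma adjusted p = 0.00244) and higher in NC PNAs than in unoperated nerves by 1.46 (limma adjusted p = 6e-05). Spop, a ubiquitin ligase adaptor that marks Gli2 and Gli3 for degradation, was lower by -0.35 (limma adjusted p = 0.0122) and was lower than in unoperated nerves by -1.54 (limma adjusted p = 4.05e-06) in PEG-fused PNAs and -1.18 (limma adjusted p = 8.96e-06) in NC PNAs. Cul3, the scaffold that Spop works with, was lower than in unoperated nerves by -1.22 (limma adjusted p = 1.05e-05) and -1.16 (limma adjusted p = 8.93e-06). Dyrk2, a kinase that acts on the Gli factors, was higher than in unoperated nerves by 1.56 (limma adjusted p = 1.64e-05) and 1.31 (limma adjusted p = 2.8e-05).

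Of 12 genes of the primary cilium, the organelle in which Smo acts, 3 were higher and 0 lower in PEG-fused relative to NC PNAs by limma, and none was lower in edgeR, in DESeq2 or at an unadjusted p under 0.05. These were Kif3a, a subunit of the motor that builds the cilium (0.66, limma adjusted p = 0.00909), Tmem231, of its transition zone (0.59, limma adjusted p = 0.00683), and Bbs1, of its membrane transport complex (0.45, limma adjusted p = 0.0125). All 3 were lower than in unoperated nerves in both kinds of graft, Kif3a by -0.94 (limma adjusted p = 0.00093) in PEG-fused PNAs and -1.60 (limma adjusted p = 3.41e-05) in NC PNAs. In all, 2 of the 12 were higher and 3 lower in PEG-fused PNAs than in unoperated nerves, and 1 was higher and 7 lower in NC PNAs. Tctn1, another transition zone gene, was higher in both, by 0.89 (limma adjusted p = 0.00389) and 1.12 (limma adjusted p = 0.000909).

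Of 13 other genes known as Gli targets in some tissue, 3 were higher and 1 lower in PEG-fused relative to NC PNAs. Ccnd1, cyclin D1, was at 16778, 17065 and 18480 in PEG-fused PNAs, 8689, 6630 and 6470 in NC PNAs and 5998 and 5192 in unoperated nerves. It was higher with PEG fusion than without it by 1.28 (limma adjusted p = 0.000644) and than in unoperated nerves by 1.64 (limma adjusted p = 3.12e-05). In the same comparison Mycn was higher by 1.27 (limma adjusted p = 0.0374) and Snai1, a repressor of epithelial genes, by 0.82 (limma adjusted p = 0.0426), and these calls were kept in 12 and 11 of 19 alternative analyses. The lower one, Nkx2-2, had counts of 0 to 3.75 in PEG-fused and 8.61 to 14.3 in NC PNAs. It passed the filter through NC PNAs alone, where it was high, so its call, kept in 10 of 18 alternatives, supports nothing. Against unoperated nerves, 5 were higher and 5 lower in PEG-fused PNAs, and 2 were higher and 3 lower in NC PNAs. Ccne1, cyclin E1, was higher by 3.55 (limma adjusted p = 6.84e-06) in PEG-fused PNAs and 3.17 (limma adjusted p = 7.62e-06) in NC PNAs, and Ccnd2 by 0.99 (limma adjusted p = 0.000488) and 0.89 (limma adjusted p = 0.000668). Bmp4, a secreted growth factor, was lower by -2.87 (limma adjusted p = 0.00037) and -2.70 (limma adjusted p = 0.000394), and Foxc2 by -1.77 (limma adjusted p = 0.00182) and -2.65 (limma adjusted p = 0.000148). Foxl1, also counted as lower in both kinds of graft, was at 19.3 and 18.8 in unoperated nerves and 0.965 to 3.71 in the grafts. It passed the filter through unoperated nerves alone, where it was high, so its calls support nothing. Cyclins and growth factors of this list are regulated by many other signals.

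**Figure D4:**
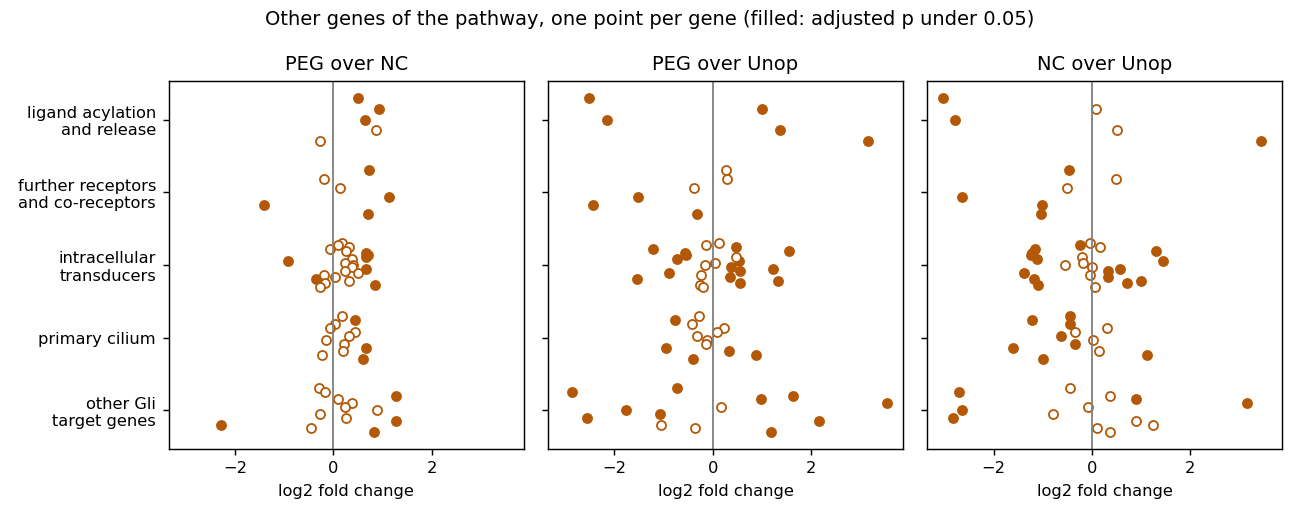
Log2 fold changes (x axis) of 59 other Hedgehog pathway genes in 5 lists (rows), with 1 point per gene and filled points for a limma adjusted p under 0.05, in the 3 comparisons. For PEG-fused over NC PNAs most filled points lie above 0 (17 of 21), and against unoperated nerves filled points lie on both sides in most lists.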

How the data were processed

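The authors used TopHat2 to align paired-end reads of stranded mRNA libraries to Rnor_6.0, HTSeq-count to count reads on each Ensembl gene, and DESeq2 size factors to normalize the counts (versions not given in the sources used here). The deposited signal values are these normalized counts. Deposited tables of the authors' fold changes and p-values were not used.

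Of the values, 100% were whole reads within 0.001 read (scaled above 1000 reads) after division by a constant per library, between 32472925 and 39959620 reads on genes, with size factors of 0.800 to 1.12. Tests covered the 16478 genes, of 22798 with a read, that reached a normalized count of 10 in 2 or more libraries, and used limma 3.58.1 (trend, group means, 8 libraries) on log2(normalized count + 1), and a call is a Benjamini-Hochberg adjusted p under 0.05. On the whole reads, edgeR 4.0.16 called 2553 genes higher and 2424 lower for PEG-fused over NC PNAs, beside 2477 and 2286 from limma. The tests were tried on simulated counts first. R 4.3.3, DESeq2 1.42.0 and Python 3.11.15 were also used.

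The members and gene lists were chosen with earlier results of these data known, and members carry no p-value for this reason. The p-values printed for genes of the lists are a description only. Named genes are the members, each listed pathway gene called for PEG-fused over NC PNAs, up to 4 per list with the smallest adjusted p against unoperated nerves, Sox10 and the 3 nearest genes of each tested member. A few of the named genes are counted in their lists but not reported here. Alternatives were other tools, TMM rescaling, filters, pseudocounts, a robust fit, fits of 2 groups alone, a replicate block, a fold change threshold and each library left out. Symbols not matched to 1 gene (1 of 60 pathway genes, and a few markers) were left out. Transcript lengths were not used, so levels are not compared between genes. Reads shared by similar genes may be split or lost by the counting.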

Additional observations from a re-analysis of the deposited data

How the results depend on the processing

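Of 24 fold changes of members (8 genes, 3 comparisons), 16 kept their direction and their side of the threshold in every alternative run, which included Shh, Dhh, Smo and Gli1 in all 3 comparisons. Over 456 refits, 20 lost a call, 4 gained one and 4 changed sign. The changes of sign were all in Gli3 for NC PNAs over unoperated nerves, a difference near 0 that was not called, which was -0.0084 with the replicate block, between -0.20 and 0.37 when single libraries were left out (below 0 without NC 3 or Unop 1) and -0.26 with NC 1 and NC 3 both left out, an alternative chosen after the data were seen. Gli3 for PEG-fused over NC PNAs also lost its call in edgeR, without a filter and with the replicate block, at log2 fold changes of 0.75, 0.76 and 0.76.

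With a log2 fold change beyond 1 also required, which by construction lowers counts, 1 member was called for PEG-fused over NC PNAs (Shh). The members called were 4 for PEG-fused PNAs over unoperated nerves and 6, as before, for NC PNAs over them. Pathway genes called were 5, 20 and 23 of 59 for PEG-fused over NC PNAs, PEG-fused PNAs over unoperated nerves and NC PNAs over unoperated nerves. Of the 16478 tested genes, 1903, 5326 and 6359 were called under this rule in the same order. The pathway genes were thus called at shares close to those of all tested genes. With NC 1 and NC 3 both left out, 10 pathway genes were called for PEG-fused over NC PNAs. With each library left out in turn, members called ranged from 4 to 7 for PEG-fused over NC PNAs, 5 to 7 for PEG-fused PNAs over unoperated nerves and 6 to 7 for NC PNAs over unoperated nerves, and pathway genes called from 13 to 22, 28 to 40 and 30 to 35. Over all tested genes, calls for PEG-fused over NC PNAs then ranged from 1363 to 2557 higher and from 1390 to 2350 lower. For PEG-fused PNAs over unoperated nerves they ranged from 4208 to 4843 higher and from 3990 to 4845 lower. For NC PNAs over unoperated nerves the ranges were 4713 to 5150 higher and 4628 to 5174 lower. The log2 ratio of Dhh to Sox10, with each library left out after the data were seen, ranged from -1.59 to -1.24 for PEG-fused PNAs against unoperated nerves, from -1.75 to -1.40 for NC PNAs against them and from 0.04 to 0.21 between the grafts.

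Samples with the same replicate number did not deviate together throughout (correlations across genes of 0.108, 0.109 and -0.050 between PEG-fused and NC PNAs), so the numbers were not taken to pair them. With unoperated nerves, same-number correlations were 0.154 and 0.136 for PEG-fused and 0.152 and 0.157 for NC PNAs, where the deviations of the 2 nerves mirror each other. With the replicate block, 6, 6 and 6 members and 20, 31 and 33 pathway genes were called in the same order of comparisons. Over all tested genes that fit called 2110 higher and 2055 lower, 4489 and 4404, and 5034 and 4975. Depth limited Ihh and Hhip, which had between 0 and 17 reads in each graft.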
